A study of Mus musculus with 6 samples.

Results

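The adipocyte genes of mesenteric fat were taken as Adipoq, Cfd, Lep, Cidec, Cidea, Pnpla2, Lpl, Scd1, Slc2a4 and Car3. They were found on the arrays by matching the accession of each non-control probe to a RefSeq gene symbol. All 10 genes were present, with 14 probes of the 41006 on the array, since Cfd, Cidec, Car3 and Lpl had 2 probes each. They were 10 of 37240 genes on the array, where an accession or probe name without a symbol also counts as a gene. Of the 37048 genes tested, 12235 had a symbol, and shares of all genes below include those without. Every one of the 14 probes was well above background in both channels on all 6 arrays, and none was saturated, so no member was lost to the filter on dim probes.

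The arrays compared naive mesenteric lymph nodes of adult knockout mice in 2 groups, asking which genes respond to TNF made by T cells and by B cells. TNF is a cytokine that shapes lymphoid tissue and also acts on fat cells. One group, labelled B-TNF KO, lacked TNF in B cells, and the other, labelled TB-TNF KO double, lacked it in T and B cells. Both groups thus carried the B cell deletion, and no wild-type group was analysed here. The promoter that drove each deletion and the age beyond adult are not given in the sources used here. Each group had 3 arrays, and each array held RNA from the nodes of 3 mice in one pool, labelled with Cy3. The same reference, RNA pooled from 11 mouse cell lines, was labelled with Cy5 on every array. A value below is the log2 ratio of node over reference, where 1 is a 2-fold excess over the reference, unless the sample channel (normalised log2 Cy3 intensity) is named.

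White adipocytes store triglyceride in one large lipid droplet, take up fatty acids and glucose after meals, release fatty acids by lipolysis and secrete hormones such as adiponectin and leptin. The mesenteric lymph nodes lie embedded in mesenteric fat. A node preparation can carry fat at its capsule, and in such bulk RNA fewer fat cells and less RNA per fat cell cannot be told apart.

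Some arrays stood apart from their group, which touches most results below. For TB-TNF KO arrays 1 and 2 the SD of the sample channel difference was 0.952 of that in the reference channel, where the RNA was the same, and the ratio was 1.05 to 1.59 for the other 14 array pairs. The 1.05 was for B-TNF KO array 2 and TB-TNF KO array 1, which are of different groups. A ratio near 1 thus does not by itself mark a shared sample. Over 2-fold apart were 9 probes for TB-TNF KO arrays 1 and 2, against 28 to 212 for the other pairs. On these values TB-TNF KO arrays 1 and 2 were counted as 1 sample, which left 3 samples against 2. These arrays, 1 labelled male and 1 female, also had low Y-linked signal, with Eif2s3y at -2.81 and -2.84 against 0.59 to 1.83 on the 4 others, all labelled male. Genes of the exocrine pancreas, an organ beside these nodes, had medians of 4.23 and 4.52 on B-TNF KO arrays 1 and 2 and 4.83 and 4.79 on TB-TNF KO arrays 1 and 2. On array 3 of either group that median was 0.01 and -0.00. The scans of each group were read on a day of its own, so day and group cannot be told apart. Lymphocyte markers, which check the labelled tissue, had medians between 2.58 and 3.01 on all arrays. Median background-subtracted intensity per array was 144 to 203 in the sample channel, 280 to 283 in the reference channel of B-TNF KO and 315 to 362 in that of TB-TNF KO.

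Probe sequences are shown for the hormone genes Adipoq and Lep, of which Adipoq varied between arrays and Lep stayed nearly flat, and for the 4 genes read by 2 probes. The Adipoq and Lep probes are given whole, at 60 bases. For the 2-probe genes the first 30 of 60 bases are given, 5′ to 3′, with the probe of higher mean sample signal, which represented the gene, first. In each of the 4 pairs the longest stretch shared by the 2 probes, on either strand, was 6 bases, so the probes read different places of a gene. Place in the transcript and in the genome was not determined for the probes.
Adipoq: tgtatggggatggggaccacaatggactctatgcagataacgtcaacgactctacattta
Lep: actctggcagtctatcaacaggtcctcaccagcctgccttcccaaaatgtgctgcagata
Cfd, tested probe: tctgtggcaatggcaaaaagccgggcgtct
Cfd, other probe: aacatcacaaatggtaacatgacatcctga
Cidec, tested probe: tgcctgaatggacacagttcctgttctcct
Cidec, other probe: acctgcactgctacaaggccaagcgcatcg
Car3, tested probe: acatgcaaccgcagtgccttttgacatgat
Car3, other probe: aggccccttttacacactttgacccatcat
Lpl, tested probe: gaacaccaacccacatgcaaaaccccacaa
Lpl, other probe: atttaccagggggtcacctggtcgaagtat

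Fat-cell transcripts were plainly present in all 6 node preparations, and no member passed the threshold between the groups after adjustment. By limma with Benjamini-Hochberg adjustment, 0 of 10 members passed in either direction, against 0% of all 37048 genes tested higher and 0.0108% lower in TB-TNF KO. At an unadjusted p under 0.05 by the same fit 1 member, Pnpla2, was higher and 0 were lower, against 5.03% and 11.3% of all genes. The 10 differences (TB-TNF KO minus B-TNF KO) lay between -0.38 and 0.27, with 6 below 0 and 4 above, and a median of -0.07 against -0.01 over all genes. The within-group picture was different. In TB-TNF KO the sample of arrays 1 and 2 lay below array 3 for all 10 members, with a median of -0.49, against -0.01 over all genes. For Cfd and Lep the gap was only -0.02 and -0.01, and in the sample channel 9 of 10 members lay below. The share of all genes below array 3 was not counted. Because p-values here rest on 5 samples, they measure only the spread between these pools.

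**Figure D1:**
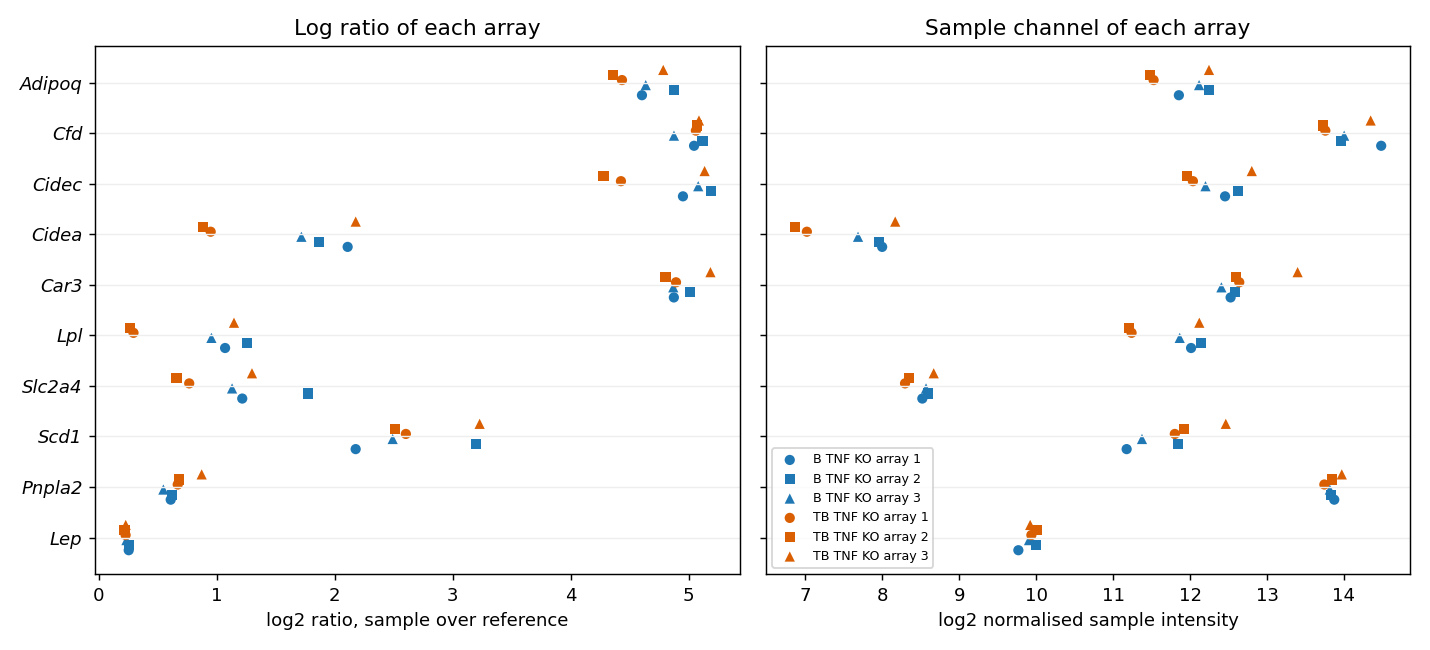
Values of the 10 adipocyte genes on each of the 6 arrays, as log2 ratio of node over reference (left) and as log2 normalised sample intensity (right). Blue marks are B-TNF KO, orange marks TB-TNF KO, and circle, square and triangle are arrays 1, 2 and 3. TB-TNF KO arrays 1 and 2 lie left of array 3 in the log ratio of every gene, narrowly for Cfd and Lep, and the groups overlap for 8 of the 10 genes.

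Of the secreted factors, Adipoq encodes adiponectin, a hormone made almost only by fat cells. Its log2 ratio was 4.60, 4.87 and 4.64 on B-TNF KO arrays 1 to 3 and 4.43, 4.36 and 4.78 on TB-TNF KO arrays 1 to 3. TB-TNF KO arrays 1 and 2 were the lowest of the 6, and array 3 lay among the B-TNF KO arrays, so the groups overlapped. The difference was -0.11 (SE 0.13, limma adjusted p = 0.749), with a 95% interval of -0.44 to 0.21. In the sample channel Adipoq stood at 11.85, 12.25 and 12.12 in B-TNF KO and at 11.53, 11.48 and 12.25 in TB-TNF KO, so arrays 1 and 2 were 1.67-fold below array 3 in that channel. Its reference channel was also lower on arrays 1 and 2, at 7.97 and 7.82 against 8.39, and the gap in the log ratio was 1.31-fold.

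Cfd encodes adipsin, the serine protease complement factor D that fat cells secrete. Its tested probe read 5.05, 5.12 and 4.88 in B-TNF KO and 5.06, 5.07 and 5.09 in TB-TNF KO, an almost flat profile. The difference was 0.06 (SE 0.08, limma adjusted p = 0.753). The sample channel of Cfd was not flat, at 14.48, 13.96 and 14.00 in B-TNF KO and 13.76, 13.73 and 14.35 in TB-TNF KO. The reference channel of the same spots moved along with it, at 10.76, 10.14 and 10.42 in B-TNF KO and 9.88, 9.64 and 10.38 in TB-TNF KO. The reference was the same RNA on all arrays, and its part in the flat ratio was not tested. The other Cfd probe read 6.71, 6.65 and 6.42 in B-TNF KO and 6.54, 6.51 and 6.73 in TB-TNF KO, with arrays 1 and 2 of TB-TNF KO below array 3 by 0.20 in the ratio and 0.82 in the sample channel.

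Lep encodes leptin, the satiety hormone that white fat releases in proportion to its lipid stores. Its log2 ratio was 0.26, 0.26 and 0.24 in B-TNF KO and 0.23, 0.22 and 0.23 in TB-TNF KO. These ratios barely exceeded the level of the cell line reference, and how much of the signal came from fat was not tested. All TB-TNF KO arrays lay below all B-TNF KO arrays, as they did for 17.2% of all genes, but the difference was -0.02 (SE 0.04, limma adjusted p = 0.845). The sample channel of Lep ran from 9.77 to 10.02 with overlapping groups, and the difference there was 0.06. In the log ratio Lep varied least of the members, with arrays 1 and 2 of TB-TNF KO 0.01 below array 3.

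Of the lipid droplet proteins, Cidec (also called Fsp27) joins droplets into the single large one of white fat cells. Cidec read 4.95, 5.19 and 5.08 in B-TNF KO and 4.43, 4.28 and 5.13 in TB-TNF KO. Arrays 1 and 2 of TB-TNF KO were the lowest and array 3 fell within the B-TNF KO range. The difference was -0.33 (SE 0.22, limma adjusted p = 0.534). The other, dimmer Cidec probe was likewise highest on array 3 within TB-TNF KO, at 0.17 and 0.23 on arrays 1 and 2 and 0.58 on array 3, with 0.43, 0.52 and 0.55 in B-TNF KO.

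Cidea, a related droplet protein best known from brown fat, had the widest spread of the members. Its log2 ratio was 2.11, 1.87 and 1.72 in B-TNF KO and 0.95, 0.88 and 2.18 in TB-TNF KO, so TB-TNF KO held both the lowest pair and the highest array of the 6. The difference was -0.35 (SE 0.35, limma adjusted p = 0.698), and its interval ran from -1.21 to 0.50. Background-subtracted sample intensity was 75.3 and 66.4 on TB-TNF KO arrays 1 and 2 and 249 on array 3, against 196 to 223 in B-TNF KO. Array 3 exceeded arrays 1 and 2 by 2.40-fold in the ratio and 2.34-fold in the sample channel, while the reference differed by -0.25.

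Of the lipases, Pnpla2 encodes adipose triglyceride lipase, which starts the breakdown of stored fat. Pnpla2 read 0.61, 0.62 and 0.55 in B-TNF KO and 0.67, 0.68 and 0.87 in TB-TNF KO, so all TB-TNF KO arrays lay above all B-TNF KO arrays, as for 10.7% of all genes. The difference was 0.18 (SE 0.07, 95% interval 0.01 to 0.35) and did not pass (limma adjusted p = 0.272). In the sample channel the groups overlapped and Pnpla2 differed by 0.04, while its reference channel differed by -0.13.

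Lpl encodes lipoprotein lipase, which frees fatty acids from circulating lipoproteins for uptake, and is also made outside fat. Lpl read 1.07, 1.26 and 0.96 in B-TNF KO and 0.30, 0.27 and 1.15 in TB-TNF KO, again with arrays 1 and 2 below every other array and array 3 within the B-TNF KO range. The difference was -0.38 (SE 0.24, limma adjusted p = 0.52). Within TB-TNF KO array 3 was 1.82-fold above arrays 1 and 2 in the ratio and 1.86-fold in the sample channel, and the reference differed by -0.07. The other Lpl probe read 0.87, 1.22 and 1.14 in B-TNF KO and 0.62, 0.64 and 1.17 in TB-TNF KO, again with array 3 above arrays 1 and 2, by a smaller amount.

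Scd1, the desaturase that makes monounsaturated fatty acids for storage, read 2.18, 3.20 and 2.49 in B-TNF KO and 2.60, 2.51 and 3.23 in TB-TNF KO. B-TNF KO array 2 and TB-TNF KO array 3 were high together, and B-TNF KO array 1 was the lowest. The difference was 0.27 (SE 0.33, limma adjusted p = 0.759). The sample channel of Scd1 differed by 0.70 (limma adjusted p = 0.147), with TB-TNF KO at 11.80, 11.92 and 12.46 against 11.18, 11.85 and 11.38.

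Slc2a4 encodes GLUT4, the insulin-regulated glucose transporter of fat and muscle. It read 1.22, 1.78 and 1.13 in B-TNF KO and 0.77, 0.66 and 1.30 in TB-TNF KO, with arrays 1 and 2 of TB-TNF KO lowest. The difference was -0.37 (SE 0.24, limma adjusted p = 0.532). The high ratio on B-TNF KO array 2 went with a reference value of 7.64, below the 8.14 and 8.33 of the other arrays of that group, while the sample channel there ranged over 0.07.

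Car3 encodes carbonic anhydrase III, an abundant cytosolic protein of fat and muscle. Car3 read 4.87, 5.01 and 4.87 in B-TNF KO and 4.89, 4.80 and 5.18 in TB-TNF KO, with overlapping groups and a difference of 0.10 (SE 0.11, limma adjusted p = 0.725). In the sample channel all TB-TNF KO arrays (12.64, 12.60 and 13.40) lay above all B-TNF KO arrays (12.53, 12.58 and 12.41), as for 15.4% of all genes, by 0.50 (limma adjusted p = 0.214). The other Car3 probe read 1.68, 1.82 and 1.76 in B-TNF KO and 1.72, 1.56 and 2.04 in TB-TNF KO.

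**Figure D2:**
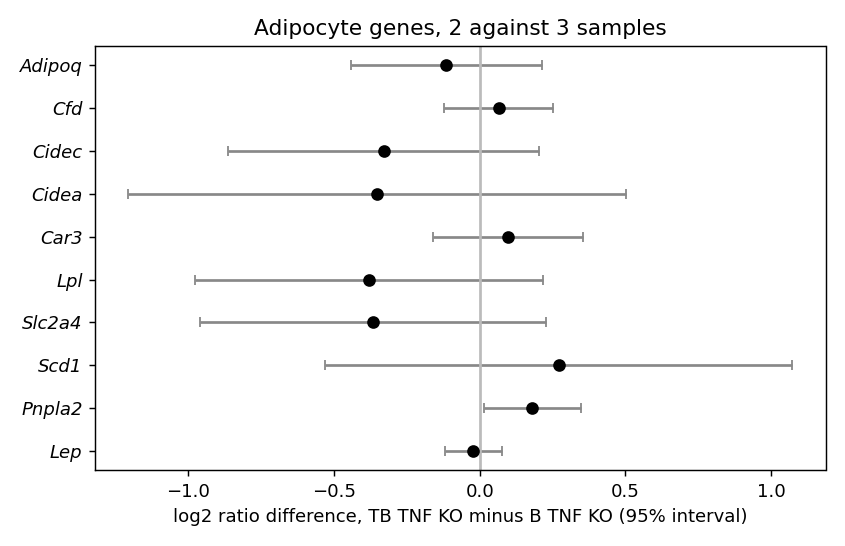
Difference in log2 ratio between TB-TNF KO (2 samples) and B-TNF KO (3 samples) for each adipocyte gene, with the 95% interval of the limma fit. All intervals but that of Pnpla2, from 0.01 to 0.35, include 0, and those of Cidea, Lpl, Slc2a4 and Scd1 are wide enough to include differences beyond 0.9 in size.

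The sample channel alone gave 0 of 10 members past the threshold in limma, against 0.683% of all genes higher and 0.775% lower. At an unadjusted p under 0.05 in that channel 2 members, Car3 and Scd1, were higher and 0 were lower, against 11.1% and 11.5% of all genes. With the replicate number as a block on the 6 arrays, 0 members passed in limma (adjusted p 0.18 to 0.84), against 1.84% of all genes higher and 6.48% lower. Before adjustment 0 members were higher and 1 lower there, against 7.72% and 16.8%. That fit counts TB-TNF KO arrays 1 and 2 as separate samples, as does the fit of 6 arrays without a block, where 0 members passed in limma against 1.45% higher and 4.68% lower (before adjustment 1 and 0 members, against 7.09% and 15.1%). The sign of 4 differences rested on TB-TNF KO arrays 1 and 2. With TB-TNF KO arrays 1 and 2 both left out, Adipoq was at 0.08, Cidec at 0.06, Cidea at 0.28 and Lpl at 0.05. Without TB-TNF KO array 3 the values of Cidea, Lpl and Cidec were -0.98, -0.81 and -0.72, and none of them passed.

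The arrays of one group were then compared as a measure of attached fat. Ordered by the median log2 ratio of the 10 genes, TB-TNF KO array 3 was highest at 2.70. B-TNF KO array 2 followed at 2.53, array 1 at 2.14 and array 3 at 2.11. TB-TNF KO arrays 1 and 2 were lowest at 1.78 and 1.70. On every array this median was the mean of Cidea and Scd1, the 2 genes in the middle of the 10. The other members did not enter its value, so the order is that of these 2 genes. B-TNF KO arrays 1 and 3 were 0.04 apart in this median, and TB-TNF KO arrays 1 and 2, which differed by about the technical noise, 0.08. The 0.04 hides opposite gaps, since Cidea was higher on B-TNF KO array 1 than on array 3 (2.11 against 1.72) and Scd1 lower (2.18 against 2.49). Between TB-TNF KO arrays 1 and 2 single members differed by 0.01 to 0.15. Summed background-subtracted sample intensity of the 10 genes was 60403 to 72707 in B-TNF KO and 39977, 35568 and 68371 in TB-TNF KO. These sums were not scaled between arrays. Cfd and Pnpla2 had the highest intensities of the members on every array and so weigh most in the sums. The summed lymphocyte list was also lowest on TB-TNF KO arrays 1 and 2, at 45851 and 40328. It was 61227 on array 3 and 58333 to 79376 in B-TNF KO, so a low sum there was not particular to the fat genes. Inside TB-TNF KO the fat sum was above the lymphocyte sum on array 3 and below it on arrays 1 and 2. With 2 samples in TB-TNF KO the gap inside that group has no replicate check and no test was made of it.

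Counted over single genes, TB-TNF KO arrays 1 and 2 lay over 2-fold below array 3 for 1 of 10 members, Cidea, against 0.0568% of 36977 genes. Over 1.5-fold below were 5 of 10, namely Cidea, Lpl, Cidec, Scd1 and, barely, Slc2a4, against 0.379% of all genes. In the sample channel 7 of 10 were over 1.5-fold lower, against 0.416%, with a median of -0.67 over the members and 0.00 over all genes. No member was over 1.5-fold higher in either measure, against 0.311% and 0.403% of all genes. TB-TNF KO arrays 1 and 2 were both below the other 4 arrays for 6 of 10 members, against 18.3% of all genes. Those 6 were Adipoq, Cidec, Cidea, Lpl, Slc2a4 and Lep. TB-TNF KO array 3 was the highest of all 6 for Cidea, Car3, Scd1 and Pnpla2, 4 of 10 against 14.6%.

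The reference channel bears on this measure, because the same reference RNA was on every array. Between TB-TNF KO arrays 1 and 2 and array 3 it differed by -0.62 for Cfd, -0.55 for Car3 and -0.50 for Adipoq, and by -0.25 to 0.19 for the other 7 genes. Cfd was the 1 member over 1.5-fold lower there, against 0.0784% of all genes. For Cidec, Lpl and Scd1 the reference differed by 0.13 or less, and the sample channel carried the gap. The second probes of Cidec and Car3, whose reference differed by 0.02, fell below array 3 by 0.31 and 0.35 in the sample channel.

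**Figure D3:**
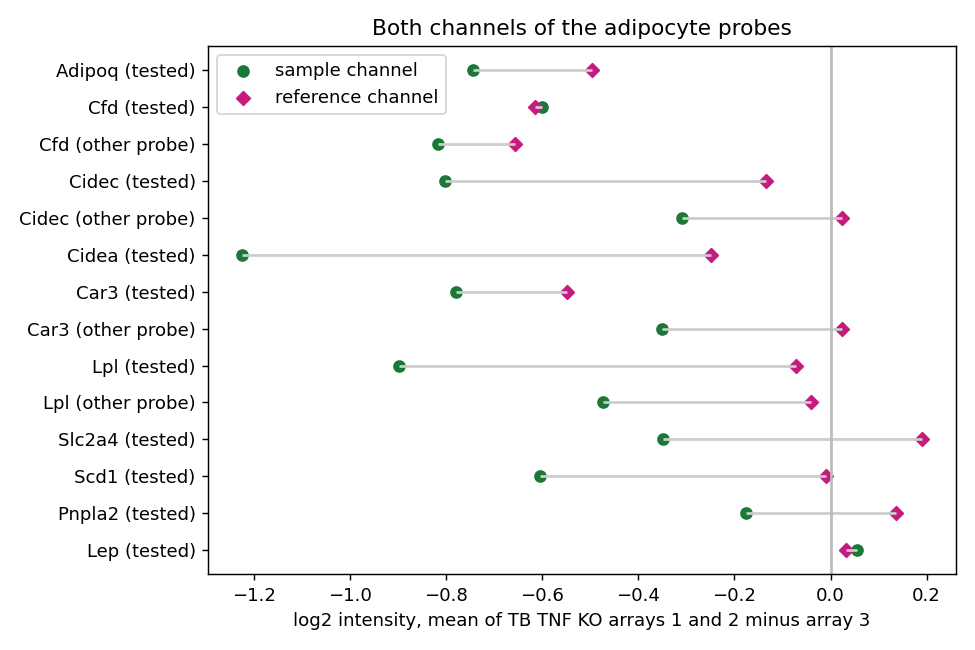
Mean of TB-TNF KO arrays 1 and 2 minus array 3 in log2 normalised intensity, for all 14 probes of the adipocyte genes, with the sample channel in green and the reference channel in magenta. The sample channel lies below 0 for 13 of 14 probes, and for both Cfd probes, Adipoq and the tested Car3 probe the reference lies well below 0 too.

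Within B-TNF KO the median range of the members over the 3 arrays was 0.26. For 4 of 10 members, Cfd, Scd1, Slc2a4 and Lep, that range was wider than the gap between TB-TNF KO arrays 1 and 2 and array 3. Scd1 had the widest range at 1.02, with array 2 over 2-fold above array 1, as for 0.187% of all genes and 1 of 10 members. Over 1.5-fold above array 3 on array 2 were 2 members, Scd1 and Slc2a4, against 0.59% of all genes. The lipid synthesis genes Pnpla3, Gpd1 and Dgat2 were also highest on array 2, as given below.

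The adipocyte median, which rests on Cidea and Scd1, was set beside the pancreas signal, and no test of a link was made. Inside TB-TNF KO the arrays with pancreas transcripts had the lower adipocyte median. Inside B-TNF KO arrays 1 and 2, with pancreas transcripts, had adipocyte medians of 2.14 and 2.53, and array 3, without, had 2.11. Summed intensity of the 13 pancreas genes was 134730, 298379 and 5100 in B-TNF KO and 340337, 327410 and 4172 in TB-TNF KO, and those of B-TNF KO array 2 and TB-TNF KO arrays 1 and 2 are lower bounds, since 3 genes were saturated there. On array 3 of each group 12 of the 13 genes had a log2 ratio under 0.5. The Y-linked genes, unlike those of the pancreas, separated TB-TNF KO arrays 1 and 2 from the other 4. The part of the pancreas or Y-linked difference in the adipocyte values was not tested.

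Of the other fat genes, 6 lists by role held 81 genes, of which 65 were measured. By limma 0 passed in either direction, and 2 were higher and 3 lower before adjustment (p under 0.05). Among the 2 higher was Apoe, whose probe was saturated on every array. Over all genes the shares before adjustment were 5.03% higher and 11.3% lower. With the replicate block limma called 3 of the 65 lower, Fabp5, Gpam and Trarg1, against 6.48% of all genes, and Trarg1 was fitted without B-TNF KO array 3, where its spot was left out. The 1 called higher, Apoe, against 1.84%, was saturated on every array and is no measured change. Gpam was outside the rule for named genes. Inside TB-TNF KO 44 of the 65 lay below array 3 on arrays 1 and 2. The median of that difference over all genes was -0.01, and the share of all genes below array 3 was not counted. Over 1.5-fold lower were 8 of 65, and 0 were over 1.5-fold higher, against 0.379% and 0.311% of all genes.

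Among 10 other adipokines and secreted proteins the median was 0.21 lower on TB-TNF KO arrays 1 and 2 than on array 3. Nnat, encoding neuronatin, read 0.67, 0.60 and 0.92 in B-TNF KO and 0.16, 0.14 and 1.24 in TB-TNF KO. Agt, encoding angiotensinogen, read 1.75, 1.32 and 1.5 in B-TNF KO and 0.36, 0.43 and 1.33 in TB-TNF KO. Both had TB-TNF KO arrays 1 and 2 as the lowest of the 6, as Cidea did. The apolipoprotein gene Apoc1 was at -0.33. Apoe was saturated on all 6 arrays, so no difference is read from it.

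Of 14 lipid droplet and lipolysis genes, with a median of -0.08 inside TB-TNF KO, Plin1 and Mgll were over 1.5-fold lower on arrays 1 and 2. Plin1 encodes perilipin, the coat protein of the fat cell droplet, and read 1.99, 2.17 and 2.19 in B-TNF KO and 1.83, 1.48 and 2.46 in TB-TNF KO. Mgll, the monoglyceride lipase gene, read 3.55, 3.88 and 3.76 in B-TNF KO and 3.21, 3.15 and 3.81 in TB-TNF KO. The lipolysis inhibitor gene G0s2 and the adrenergic receptor gene Adrb3 differed by 0.04 and 0.19 there, so not all genes of the role moved one way. Their log2 ratios ran from 0.54 to 0.99 and from 0.02 to 0.41.

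Of 10 genes of lipid uptake and binding, with a median of -0.03, Cd36, a fatty acid receptor of fat cells, macrophages and capillary endothelium, stood at 1.59 and 1.52 on TB-TNF KO arrays 1 and 2. It read 2.20 on array 3 and 2.13 to 2.31 in B-TNF KO. The caveolin genes Cav1 and Cav2 differed by -0.57 and -0.43 between those arrays. Fabp5 differed by 0.01 inside TB-TNF KO and by -0.56 (SE 0.09, limma adjusted p = 0.062) between the groups. With the replicate block, which counts TB-TNF KO arrays 1 and 2 as separate samples, its limma adjusted p was 0.0138. Fabp4, the fatty acid binding protein of fat cells, was named after its values were seen. It read 6.05, 6.21 and 5.91 in B-TNF KO and 5.92, 5.85 and 6.17 in TB-TNF KO, the same order within TB-TNF KO as most members.

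Of 17 genes of fatty acid and triglyceride synthesis, with a median of -0.11, 3 were over 1.5-fold lower on TB-TNF KO arrays 1 and 2. Pnpla3, encoding adiponutrin, read 1.22, 2.42 and 1.74 in B-TNF KO and 0.90, 0.91 and 2.16 in TB-TNF KO. Gpd1, the glycerol-3-phosphate dehydrogenase gene, read 2.85, 3.48 and 2.78 in B-TNF KO and 2.57, 2.43 and 3.35 in TB-TNF KO. Dgat2, for the last step of triglyceride synthesis, read 1.73, 2.38 and 1.88 in B-TNF KO and 1.64, 1.58 and 2.28 in TB-TNF KO. All 3 had B-TNF KO array 2 and TB-TNF KO array 3 as the 2 highest arrays, as Scd1 did. The fatty acid elongase gene Elovl6 went the other way, 0.50 higher on TB-TNF KO arrays 1 and 2.

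The 9 adipocyte transcription factor genes had a median of -0.00 inside TB-TNF KO, with 0 over 1.5-fold apart. Cebpb, Cebpd and Stat5a were at 0.32, 0.22 and 0.16 and Ebf1, also a B cell factor, at -0.34. Pparg, the master regulator of fat cell formation, was named after its values were seen and stood at -0.26 to 0.04 on all arrays. Of 5 genes of insulin action, Trarg1, a GLUT4 trafficking regulator, was at -0.55 and Irs1 at 0.02, and Cap1 was saturated on all 6 arrays.

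**Figure D4:**
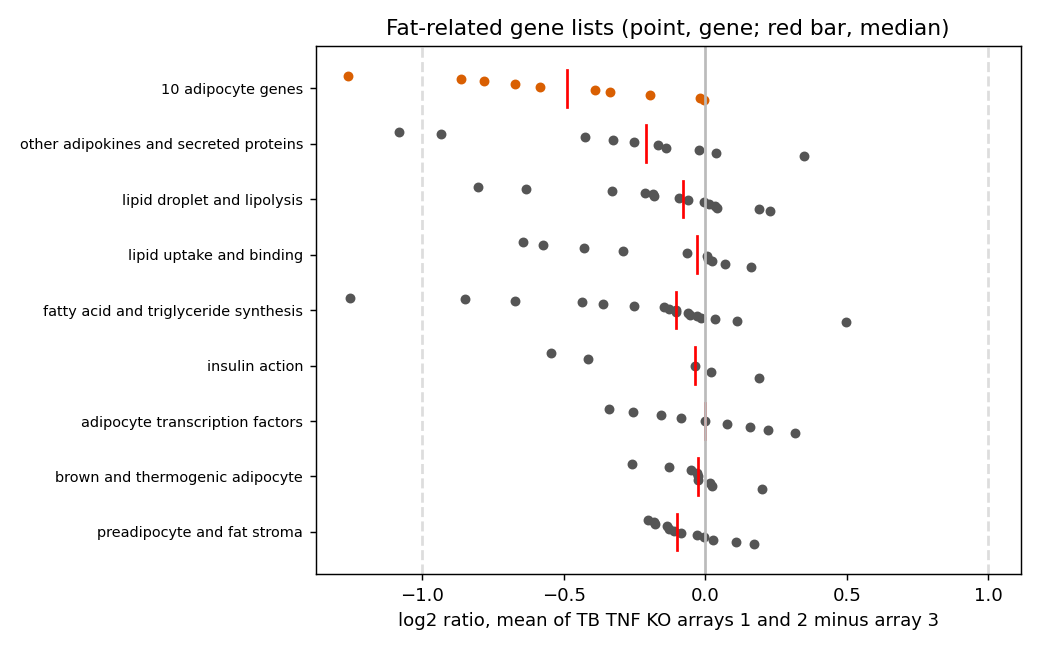
Mean of TB-TNF KO arrays 1 and 2 minus array 3 in log2 ratio, for each measured gene of 9 fat-related lists, with the list median as a red bar and dashed lines at a 2-fold difference. The 10 adipocyte genes have a median of -0.49, and the other lists have medians between -0.21 and 0.00 with a few genes far to the left.

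Markers of brown fat, fat stroma and other neighbours were set beside these values. Of 9 brown and thermogenic genes, with a median of -0.03, Ucp1, the defining uncoupling protein, was at -0.20 to 0.03 on all arrays, and Ppargc1a, Cox8b and Prdm16 differed by -0.26, -0.13 and 0.20 inside TB-TNF KO. Of 12 preadipocyte and stromal genes, with a median of -0.10, Pdgfra differed by -0.18 and Icam1 by 0.17, and 0 were over 1.5-fold apart. Between the groups F3 differed by -0.33, Pdgfra by -0.20, Dlk1 by 0.21 and Icam1 by -0.25 (limma adjusted p 0.0572, 0.269, 0.126 and 0.149). With the replicate block F3, Pdgfra and Dlk1 passed (limma adjusted p 0.0176, 0.0341 and 0.0397) and Icam1 did not (0.0818). That fit counts TB-TNF KO arrays 1 and 2 as separate samples and called 1.84% of all genes higher and 6.48% lower.

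Medians inside TB-TNF KO were -0.01 for 9 skeletal muscle genes, -0.14 for 6 smooth muscle genes, 0.02 for 8 intestinal epithelium genes and 0.02 for 7 hepatocyte genes. Of the genes the rule named there, Acta1, Tnni2, Actn3 and Mb of skeletal muscle were at -0.13, -0.09, -0.04 and 0.04. Des, Tagln, Cnn1 and Synpo2 of smooth muscle were at -0.26, -0.23, -0.23 and 0.10. Fabp1, Cdx2, Krt20 and Cdh17 of the intestine were at 0.18, -0.13, -0.04 and 0.06. The hepatocyte gene Cyp2e1, which fat also expresses, was at -0.61, while Trf, Apoa1 and Ttc36 lay between -0.06 and 0.09. Of 7 macrophage genes, with a median of 0.12, Cd163 was at -0.79 in the ratio but -0.12 in the sample channel, and Marco, saturated on 1 array, Adgre1 and Siglec1 lay between 0.12 and 0.29. The 8 blood endothelium genes had a median of -0.06, with Tek at -0.36, Emcn at -0.23, Robo4 at 0.11 and Egfl7 at 0.37, and the 11 lymphocyte genes also had -0.06, with Cd79a at -0.16, Lck at -0.17, Cd8b1 at -0.06 and Ccr7 at 0.04. The 7 mesothelium genes, which mark the abdominal lining, had a median of 0.02, with Gpm6a at -0.43, Bnc1 at 0.33, Krt19 at -0.18 and Msln at 0.22. Between the groups 0 of the 63 genes of these 8 lists passed in limma (3 higher and 12 lower before adjustment, p under 0.05, against 5.03% and 11.3% of all genes). With the replicate block 1 was called higher and 7 lower, against 1.84% and 6.48% of all genes, and these were Gpm6a, Bnc1, Fabp1, Krt20, Adgre1, Emcn, Tek and Cd79a (limma adjusted p 0.014 to 0.039).

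**Figure D5:**
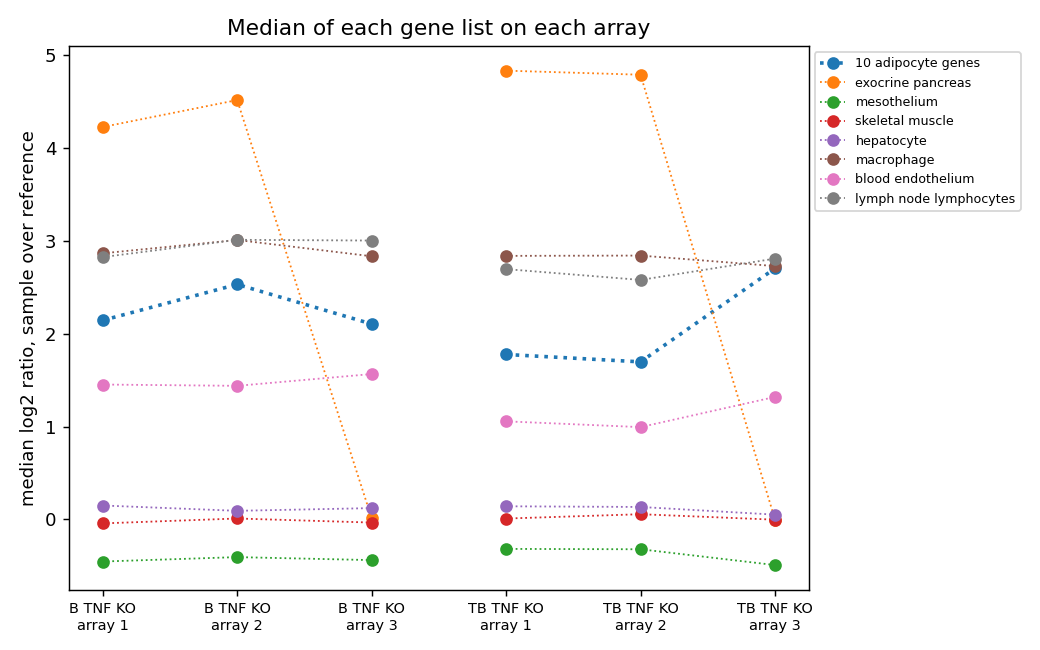
Median log2 ratio of 8 gene lists on each array, with the 10 adipocyte genes as the thick dotted line. That line is the mean of Cidea and Scd1, the middle genes of the 10 on every array. Exocrine pancreas falls from over 4 to about 0 on array 3 of both groups, the adipocyte median is lowest on TB-TNF KO arrays 1 and 2, and the other lists stay within 0.6 of their own level over the 6 arrays.

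The genes most like Adipoq were sought over the 6 arrays by the root mean square (RMS) difference of mean-centred log2 ratios, which is a description of few arrays and not a test. The search covered only genes with a RefSeq symbol that are not members. The 8 closest of these began with A530016L24Rik at 0.03, Lyl1 at 0.04 and Ppox at 0.04. Palmd, Aacs and Mcm6 followed at 0.05, and Kcna6 and Gstz1 at 0.06. Aacs, encoding acetoacetyl-CoA synthetase, read 0.73, 1.07 and 0.83 in B-TNF KO and 0.60, 0.59 and 1.06 in TB-TNF KO. Of the members Car3 was closest to Adipoq at 0.12, as number 739 of all 36858 genes with or without a symbol. Cidea was farthest at 0.38. The other members had wider or flatter profiles than Adipoq or ordered the arrays differently, as Scd1 and Pnpla2 did. This measure of size and shape thus did not bring them together.

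Promoter sequence is shown for Adipoq and Lep, the hormone genes whose ratios moved and stayed flat inside TB-TNF KO. The RefSeq table (GRCm38.p6) held 6 promoters of 5 of the 10 genes, each running from 250 bases before to 50 after the annotated start. Only the 250 bases before the start are printed, on the plus strand, for Adipoq at chr16:23146286-23146535 and for Lep at chr6:29059971-29060220. Capitals mark CCAAT, the box bound by NF-Y and other factors, in Adipoq and TTGCGCAA, a palindrome bound by C/EBP factors, in Lep, each searched on both strands.
Adipoq promoter: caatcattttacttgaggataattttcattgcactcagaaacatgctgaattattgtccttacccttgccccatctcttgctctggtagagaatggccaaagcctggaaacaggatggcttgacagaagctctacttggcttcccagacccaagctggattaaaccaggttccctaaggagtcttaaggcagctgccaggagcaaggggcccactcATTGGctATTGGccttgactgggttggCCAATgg
Lep promoter: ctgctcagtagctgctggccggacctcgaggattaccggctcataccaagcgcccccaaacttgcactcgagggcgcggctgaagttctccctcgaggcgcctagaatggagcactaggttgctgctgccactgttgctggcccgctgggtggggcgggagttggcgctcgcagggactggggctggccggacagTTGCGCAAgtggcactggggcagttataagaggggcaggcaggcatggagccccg
The Adipoq window held 3 CCAAT matches, which begin 34, 27 and 7 bases before the start, and no TTGCGCAA. The Lep window held 1 TTGCGCAA, beginning 55 bases before the start, and no CCAAT. Over all 32851 promoters of the same length CCAAT was in 37.4% and TTGCGCAA in 0.183%. AGGTCA, a nuclear receptor half-site, and TATAAA were in 16.3% and 13.6% of all promoters and in 0 of the 6 of the adipocyte genes. A match describes the letters only, and no binding was measured.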

How the data were processed

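RNA of 6 pools was measured on two-colour Agilent arrays of 60-base probes. Spots had been quantified in Agilent Feature Extraction A.7.5.1 with subtraction of the local background, per the file headers. Intensity of each spot and its background stands in the deposited scanner files for either dye, beside a log10 value for Cy5 over Cy3. A series table of log10 values, also deposited, was made by the authors and had array medians of 2.98 to 2.99. Its values followed the processed Cy3 signal (r 0.993 to 0.996 across probes), and its background step and any scaling between arrays are unknown.

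Mean intensities were corrected with normexp (offset 50) and normalised by loess within arrays with R 4.3.3 and limma 3.58.1. The 228 outlier spots were dropped, as were control spots, which had no weight in loess. Single channels were quantile normalised. A probe was kept when well above background in the sample channel on at least 3 arrays (40792 of 41006). Symbols came from RefSeq (GRCm38.p6) for 15303 of 41034 spots. The probe with the highest mean sample signal represented a gene. The groups were compared with limma's lmFit and eBayes at a Benjamini-Hochberg threshold of 0.05 over 37048 genes. Precision is limited by how few arrays there are.

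The members and lists were chosen with earlier results of these data known. Named were all 10 members and up to 4 genes per other list with the widest range over the arrays. The 8 genes closest to Adipoq, among non-members with a symbol, were also named. Deviations of arrays with the same replicate number correlated at 0.14, 0.52 and 0.62 across 36859 genes. TB-TNF KO arrays 1 and 2 correlated at 0.41 and 0.52 with B-TNF KO array 2, but at 0.14 and 0.10 with array 1. Since these 2 arrays were counted as 1 sample, the check cannot decide whether the numbers pair the arrays. The numbers were used as pairs only in the replicate block fits. Alternatives covered background, normalisation, channel, the authors' values, probe filters, probe handling, spread model, array weights, probe GC content, the replicate block and each array left out. Plots used Python 3.11.15 and matplotlib 3.10.9. The Cidea sequence and 1 gene that the rule took are not reported here.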

Additional observations from a re-analysis of the deposited data

How the results depend on the processing

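No member passed the threshold in limma under any of the 24 alternatives run for each, where the smallest adjusted p was 0.147, for Scd1 in the sample channel. Of 240 member values 224 kept their sign. The 16 that turned, none of them a call, were Cfd without background subtraction (-0.0348), with median centring (-0.052), in the sample channel (-0.103), without B-TNF KO replicate 3 (-0.00418) and without replicate 3 of both groups (-0.014); Car3 with median centring (-0.019), without TB-TNF KO replicate 3 (-0.0702) and without replicate 3 of both groups (-0.0947); Pnpla2 with median centring (-0.0153); Lep in the sample channel (0.0573); Scd1 without TB-TNF KO replicate 3 (-0.0646) and without replicate 3 of both groups (-0.13). With TB-TNF KO arrays 1 and 2 both left out, Adipoq (0.0802), Cidec (0.062), Cidea (0.28) and Lpl (0.0518) turned. With each array left out in turn Cfd ran from -0.00418 to 0.117, Car3 from -0.0702 to 0.144 and Scd1 from -0.0646 to 0.558. Leaving out replicate 3 of both groups, leaving out those 2 arrays and the 1.5-fold threshold were added after the data were seen. With one array left in a group, it is assumed to vary like the others.

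The median gap inside TB-TNF KO lay between -0.67 and -0.46 and the median range in B-TNF KO between 0.19 and 0.29 over 10 alternatives each.

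The count of all genes called moved from 4 to 2270 with the 6 arrays counted separately, 3083 with the replicate block, and 2653 with the block and the GC correction. It was 540 in the sample channel, 488 with the trend and robust spread model, 419 with array weights and 201 with saturated probes left out. It was 2 with the mean of all probes, 1 with the deposited log ratio, and 0 with the authors' table, without background subtraction, with offset 0, without TB-TNF KO arrays 1 and 2 and without replicate 3 of both groups. Leaving out each array in turn gave 0 to 4. The block, which treats arrays of the same number as pairs, changed no call of a member. The cause was not tested, but fits without some arrays had fewer samples.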
